A study of Homo sapiens with 32 samples.

Results

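Levels of 9 long non-coding RNAs (lncRNAs) were measured in MDA-MB-468 cells treated with salinomycin (Sal), dasatinib (Das) or both drugs (S + D). MALAT1 and NEAT1 stay in the nucleus, and GAS5, ZFAS1, SNHG1, SNHG5, SNHG8, SNHG12 and SNHG15 carry small nucleolar RNAs (snoRNAs) in their introns. They were chosen by name from the 48804 genes of the deposited count table, 2 as nuclear RNAs and 7 as snoRNA hosts. The rule used no measured value, but earlier results of these data were known when the choice was made. MDA-MB-468 is a triple-negative breast cancer line, that is, one without the estrogen and progesterone receptors and without amplified HER2. Sal is a potassium ionophore and Das inhibits Src-family kinases. Cells were grown in flasks as a monolayer for 24 h or 72 h with PBS as the control, with Sal at 0.5 μM, with Das at 15 μM or with both drugs, labelled as 15.5 μM in total. Each of these 8 conditions had 4 libraries, labelled by the submitters as biological replicates, which gave 32 in all. All libraries came from this 1 cell line, and 3 of the 4 in a condition carried a replicate number while 1 was labelled without a number (the unnumbered library).

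MALAT1 is an abundant RNA of nuclear speckles, the bodies that store splicing factors, and NEAT1 is the scaffold on which paraspeckles form, the bodies built with SFPQ, NONO and other RNA-binding proteins. NEAT1 is known to rise under many kinds of cellular stress. In a snoRNA host the snoRNAs are released from the spliced introns, and the spliced exons often leave the nucleus, meet ribosomes and are degraded by nonsense-mediated decay. Many hosts start at a run of pyrimidines (the 5′ terminal oligopyrimidine tract of ribosomal protein genes), and host RNAs such as GAS5, named growth arrest specific 5, are known to accumulate when translation or growth slows.

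On GRCh37, the build of the deposited counts, MALAT1 lay at chr11:65265111-65275544 and NEAT1 at chr11:65190245-65213011, both on the plus strand. GAS5 lay at chr1:173827697-173838020 (minus strand), ZFAS1 at chr20:47894715-47916137 (plus), SNHG1 at chr11:62619450-62623425 (minus) and SNHG5 at chr6:86360209-86388650 (minus). SNHG8 lay at chr4:119199858-119206471 (plus), SNHG12 at chr1:28905050-28909644 (minus) and SNHG15 at chr7:45022618-45026560 (minus). All 9 are annotated as lncRNA genes in GENCODE. Of their exon bases, 83.7% in MALAT1, 37.6% in SNHG8, 36.4% in ZFAS1 and 7.75% in GAS5 were shared with a gene on the other strand, against 0.188% or less in NEAT1, SNHG1, SNHG5, SNHG12 and SNHG15. For SNHG5, 13.2% of exon bases were shared with genes of its own strand. Whether reads were counted by strand is not given in the sources used here, so reads of opposite-strand genes (among them the MALAT1 antisense RNA TALAM1, ZNFX1 at ZFAS1, PRSS12 at SNHG8) could not be told apart from those of the lncRNA in shared exons.

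The start sites of the hosts are shown because the levels of most of these RNAs went together over the libraries, and because a pyrimidine tract at the start is the sequence feature for which such hosts are known. Each stretch is from RefSeq (GRCh38.p14), runs 5′ to 3′ on the gene's strand, and holds 15 bases before the annotated start and 50 bases from it on. Capitals mark a run of at least 5 pyrimidines that opens with C and begins within 10 bases of the start.
ZFAS1: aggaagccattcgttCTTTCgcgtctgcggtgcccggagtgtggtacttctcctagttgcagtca
SNHG5: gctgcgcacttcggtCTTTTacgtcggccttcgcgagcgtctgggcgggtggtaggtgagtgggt
SNHG8: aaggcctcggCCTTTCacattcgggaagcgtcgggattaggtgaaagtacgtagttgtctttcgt
SNHG12: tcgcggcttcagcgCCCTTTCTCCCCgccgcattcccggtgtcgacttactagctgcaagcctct
GAS5: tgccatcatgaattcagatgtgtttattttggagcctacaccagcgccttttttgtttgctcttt
SNHG1: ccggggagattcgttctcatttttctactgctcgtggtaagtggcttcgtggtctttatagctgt
These lie at chr20:49278627-49278691 (plus strand) for ZFAS1, chr6:85678684-85678748 (minus) for SNHG5, chr4:118278747-118278811 (plus) for SNHG8, chr1:28581824-28581888 (minus) for SNHG12, chr1:173868996-173869060 (minus) for GAS5 and chr11:62855836-62855900 (minus) for SNHG1. A run was found in 4 of these 6 hosts. In ZFAS1 and SNHG5 it opened at the first transcribed base, in SNHG12 at the base before it and in SNHG8 at 5 bases before it. Such a run was held by 33.5% of the 35116 promoters of the same table, so the match is a description of these windows. The search covered only bases near the annotated start, and whether that start was the one in use here was not tested. A missing run in GAS5 or SNHG1 therefore does not show that the RNA lacks a tract. MALAT1 had a run of 11 pyrimidines that opened 10 bases before its first annotated start, and none at its second. In the full windows, of 250 bases before the start and 50 after it, neither the E-box CACGTG (7.26% of all promoters) nor the CRE motif TGACGTCA (1.85%) was found on either strand in the 7 lncRNAs with a window. TATAAA was found in SNHG1 and at the second start of MALAT1 (11.5% of all promoters). NEAT1 and SNHG15 had no window in the table.

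The libraries held between 25692561 and 42769687 counts (median 33301486.5), and levels are in CPM (counts scaled by the library total and the TMM factor). The epithelial markers EPCAM (206 to 393 CPM), KRT8 and KRT18 and the amplified EGFR of this line (2793 to 5923 CPM) were present in every library. PGR reached at most 3 counts, the leukocyte marker PTPRC at most 5 and the fibroblast marker COL1A2 at most 1, whereas COL1A1 was measured at 18.2 to 120.0 CPM. ESR1 stood at 3.64 to 11.97 CPM. Throughout, drug groups were compared with edgeR's quasi-likelihood test over all genes that passed a filter on low counts, and a change was called at a Benjamini-Hochberg adjusted p under 0.01. All 9 lncRNAs passed the filter. The libraries are bulk RNA, in which a larger share of expressing cells and more RNA per cell cannot be told apart.

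Before treatment effects are described, 2 features of the libraries bear on them. The unnumbered libraries held more of the snoRNA hosts than the numbered ones in most conditions, and folds without them are given beside the called host results. Replicate 3 of Das at 72 h was the lowest Das library of that time for every lncRNA but SNHG15. Among them were NEAT1 (555 CPM, the others 1223 CPM or more) and SNHG8 (18.6 CPM, the others 30.5 CPM or more). Values without this library are given beside the Das results called at 72 h. The plot of levels by library shows both.

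**Figure D1:**
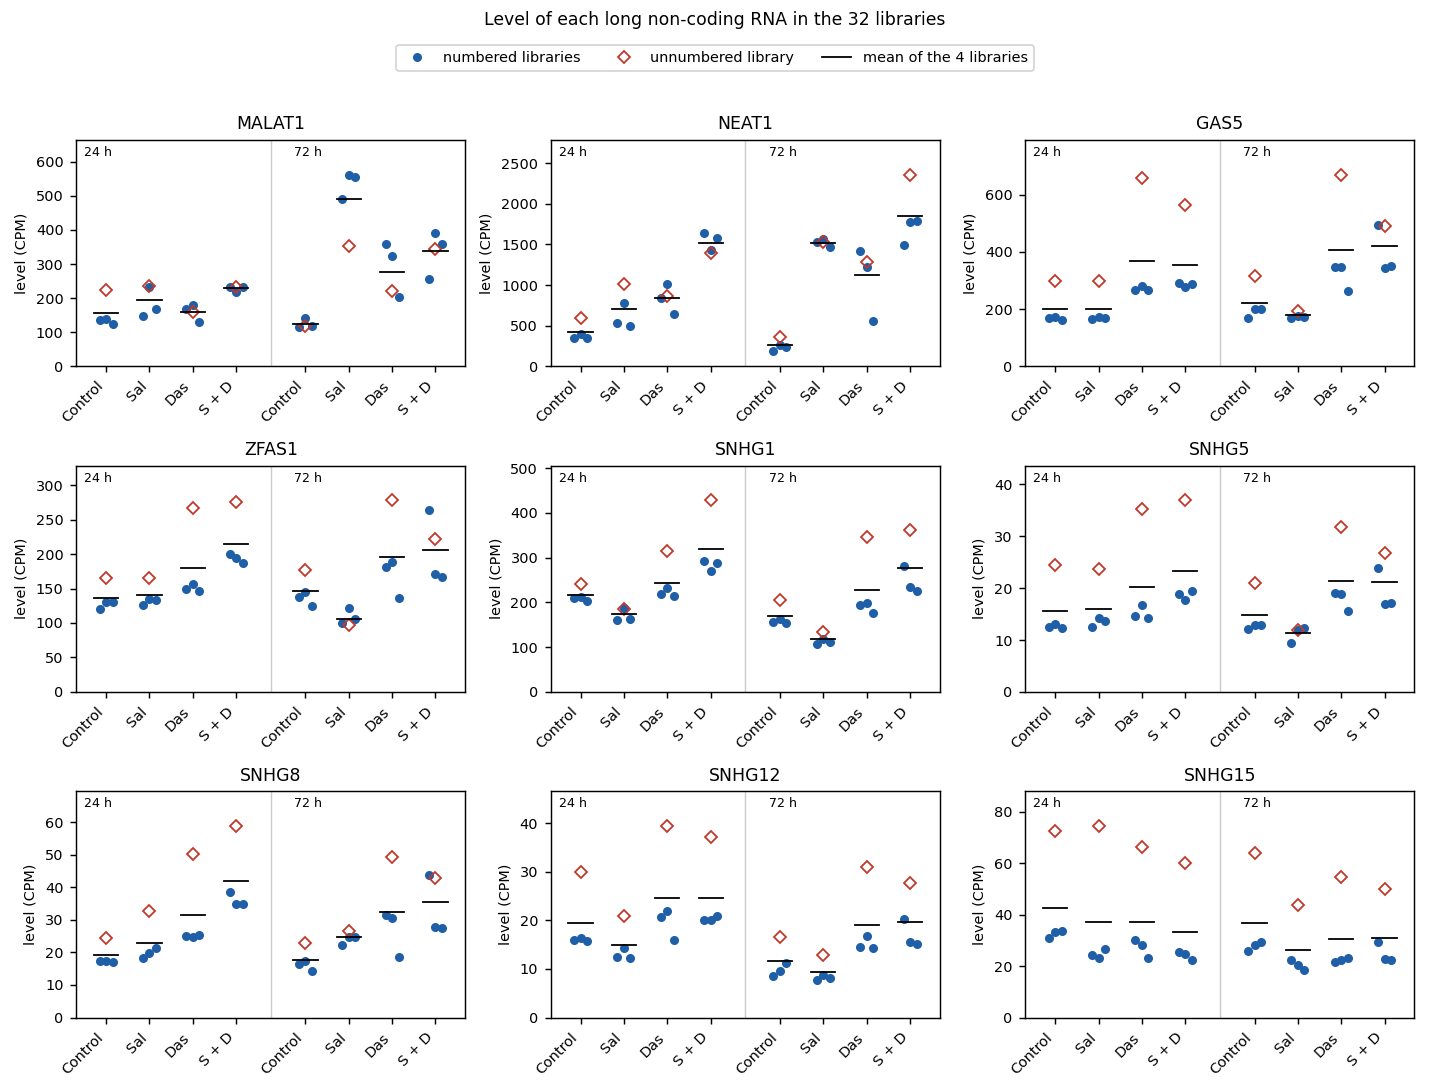
Level of each lncRNA in CPM (y axis, linear from 0) in the 32 libraries, by treatment and time (x axis). Filled circles are the 3 numbered libraries of a condition, open diamonds the unnumbered one, and bars the mean of the 4. By mean, NEAT1 was highest with S + D at 72 h and MALAT1 with Sal at 72 h. The unnumbered library was the highest of its condition in 50 of the 56 host and condition combinations.

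NEAT1 showed the largest response of the 9 lncRNAs. In control cells at 24 h it measured 343, 395 and 352 CPM in the numbered libraries and 591 CPM in the unnumbered one. With Sal at 24 h the levels were 534, 776 and 492 CPM in the numbered libraries and 1011 CPM in the unnumbered one, and the 4 libraries overlapped the controls. Das at 24 h gave 840.5, 1015 and 639 CPM in the numbered libraries and 865 CPM in the unnumbered one, with no overlap. S + D at 24 h gave 1645, 1436 and 1577 CPM in the numbered libraries and 1391 CPM in the unnumbered one, and every S + D library lay above every library of the other 24 h groups. Relative to control, NEAT1 rose 2.03-fold with Das (log2 fold change 1.02 ± 0.21 SE, adjusted p = 0.00249) and 3.69-fold with S + D (1.88 ± 0.22, adjusted p = 4.6e-06). The Sal value of 1.66-fold did not pass (adjusted p = 0.0308). It passed in the numbered libraries alone, at 1.67-fold (adjusted p = 0.000719, between 0.000719 and 0.0899 over the alternatives), and the call for Das was lost without any 1 of the numbered controls (log2 fold change 0.94, 0.99 and 0.95 without replicates 1, 2 and 3) and without Das replicate 2 (0.92).

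At 72 h control cells held 182, 257 and 234 CPM in the numbered libraries and 358 CPM in the unnumbered one. Cells treated with Sal held 1527, 1568 and 1465 CPM in the numbered libraries and 1534 CPM in the unnumbered one, a narrow range far above the controls. With Das the values were 1416, 1223 and 555 CPM in the numbered libraries and 1282 CPM in the unnumbered one, where replicate 3 (555 CPM) stood apart from the other Das libraries and still lay above each control. S + D gave 1490, 1774 and 1789 CPM in the numbered libraries and 2362 CPM in the unnumbered one. The mean was the highest of any condition, although replicate 1 (1490 CPM) lay below 3 of the 4 Sal libraries. NEAT1 rose 5.84-fold with Sal (log2 fold change 2.55 ± 0.25, adjusted p = 2.17e-07), 4.32-fold with Das (2.11 ± 0.25, adjusted p = 1e-05) and 7.11-fold with S + D (2.83 ± 0.25, adjusted p = 6.93e-08). Without Das replicate 3 the log2 fold change with Das was 2.35. S + D did not differ from Sal (log2 difference 0.29 ± 0.24, adjusted p = 0.526) or from Das (0.72 ± 0.24, adjusted p = 0.0196) at the cutoff.

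MALAT1 was called only at 72 h when all libraries were used. At 24 h the control libraries measured 135, 138 and 124 CPM in the numbered libraries and 223 CPM in the unnumbered one, and the S + D libraries 234, 219 and 233 CPM in the numbered libraries and 233 CPM in the unnumbered one. The numbered S + D libraries all lay above the numbered controls, but the unnumbered control reached 223 CPM, inside the S + D range. No treatment was called at 24 h with all libraries: the log2 fold changes were 0.33 with Sal (adjusted p = 0.262), 0.06 with Das (adjusted p = 0.855) and 0.60 with S + D (adjusted p = 0.0119). Without the unnumbered libraries MALAT1 rose 1.39-fold with Sal and 1.75-fold with S + D, both called.

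At 72 h MALAT1 stood at 115, 141 and 118 CPM in the numbered libraries and 118 CPM in the unnumbered one of control cells. Sal brought 490.2, 563 and 557 CPM in the numbered libraries and 352 CPM in the unnumbered one, and its 3 numbered libraries held the highest MALAT1 levels of the 32. Das brought 359, 324 and 203 CPM in the numbered libraries and 220 CPM in the unnumbered one. In cells given both drugs MALAT1 measured 256, 391 and 359 CPM in the numbered libraries and 345 CPM in the unnumbered one, and all 4 libraries lay below the 3 numbered Sal libraries. None of the 12 treated libraries overlapped the controls. MALAT1 rose 3.94-fold with Sal (log2 fold change 1.98 ± 0.19, adjusted p = 2.14e-07), 2.23-fold with Das (1.16 ± 0.19, adjusted p = 0.000229; 1.30 without Das replicate 3) and 2.72-fold with S + D (1.44 ± 0.19, adjusted p = 4.28e-06). The S + D level was 0.69 times that of Sal, a difference that did not pass (adjusted p = 0.0901).

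For both nuclear RNAs the response to S + D at 72 h was smaller than the sum of the single responses on the log2 scale. The interaction term, which is 0 where the responses add up, was -1.83 ± 0.34 for NEAT1 (adjusted p = 0.00185) and -1.70 ± 0.27 for MALAT1 (adjusted p = 0.000625). They were the only 2 of the 9 lncRNAs with a called interaction at 72 h when all libraries were used, where 7.52% of all 16682 genes were called. Both remained called in each of 16 fits that left out 1 library, and without Das replicate 3 the terms were -2.06 and -1.83. In the numbered libraries 2 of the 9 had a called negative interaction at 72 h and 1 a positive one (12.9% of all genes in either direction). With a term for the unnumbered libraries 2 were negative and 2 positive (17.8%). At 24 h the terms were 0.13 for NEAT1 and 0.22 for MALAT1, and neither passed (adjusted p = 0.969 and 0.934).

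**Figure D2:**
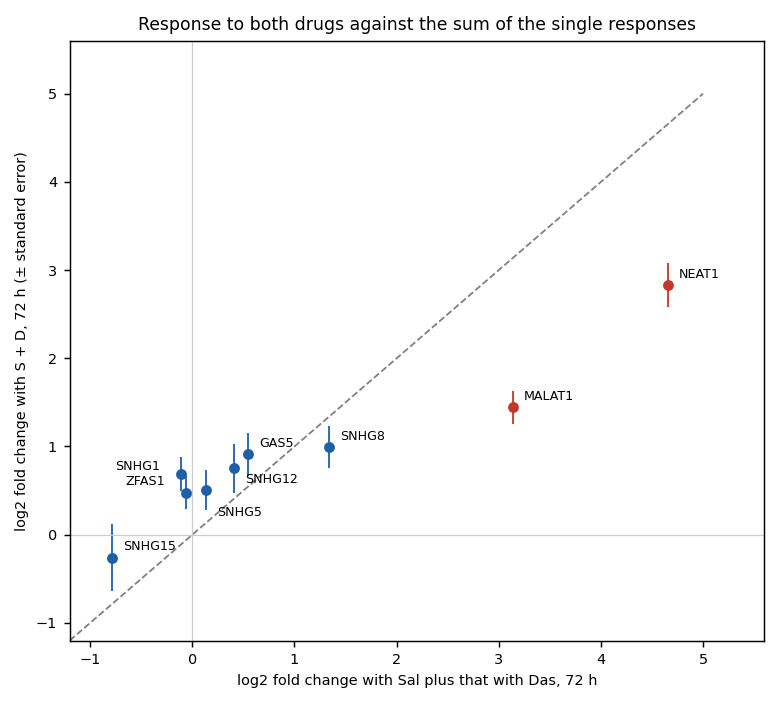
Log2 fold change with S + D at 72 h (y axis, ± standard error) against the sum of the log2 fold changes with Sal and with Das alone (x axis) for the 9 lncRNAs. Points on the dashed line have a response equal to the sum. All libraries were used. The 2 red points, NEAT1 and MALAT1, had a called interaction and lie below the line, whereas 6 of the 7 hosts lie above it without a called interaction.

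The Sal response of both RNAs also grew with time. Between 24 h and 72 h the log2 fold change with Sal increased by 1.82 ± 0.34 for NEAT1 (adjusted p = 0.00015) and by 1.66 ± 0.27 for MALAT1 (adjusted p = 3.49e-05), and these were the only 2 lncRNAs of the 9 called, against 21.9% of all 17227 genes. For Das the log2 changes of the response were 1.12 for NEAT1 (adjusted p = 0.1003) and 1.13 for MALAT1 (adjusted p = 0.0368), not called, where only 0.226% of all genes passed. Without Das replicate 3 of 72 h they were 1.34 and 1.25, and both passed. For S + D they were 1.00 and 0.89, not called (adjusted p = 0.0272 and 0.0149), with 16.3% of all genes called. In untreated cells NEAT1 was 0.61 times as high at 72 h as at 24 h, which did not pass (adjusted p = 0.0713), and none of the 9 was called between the control groups by edgeR or by DESeq2, while 2 had an unadjusted p under 0.05. Over all genes 2.76% were called there. Of the 9, SNHG1 (0.75 times) and SNHG12 (0.61 times) were called lower at 72 h in the numbered libraries, where 11% of all genes were called.

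GAS5 rose with S + D at 72 h, and its values with Sal stayed near the control at both times. In control cells at 24 h GAS5 measured 170.3, 171 and 161 CPM in the numbered libraries and 299 CPM in the unnumbered one. With Sal at 24 h it measured 165, 174 and 168 CPM in the numbered libraries and 298 CPM in the unnumbered one, which overlapped the controls. Das gave 267, 279 and 266 CPM in the numbered libraries and 658 CPM in the unnumbered one, and S + D gave 292, 279 and 288 CPM in the numbered libraries and 565 CPM in the unnumbered one. Within the numbered libraries the lowest Das value lay above the highest control, but the unnumbered control exceeded the numbered Das and S + D libraries, and with all libraries neither Das (1.86-fold, adjusted p = 0.059) nor S + D (1.82-fold, adjusted p = 0.0411) was called. Without the unnumbered libraries GAS5 rose 1.65-fold with Das (log2 fold change 0.73 ± 0.05) and 1.73-fold with S + D (0.79 ± 0.05), both called, whereas Sal gave 1.02-fold (not called).

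At 72 h the GAS5 levels were 168, 199 and 200 CPM in the numbered libraries and 316 CPM in the unnumbered one of control cells. Those of Sal were 169.9, 176 and 174 CPM in the numbered libraries and 194 CPM in the unnumbered one. Das gave 347, 347 and 263 CPM in the numbered libraries and 671 CPM in the unnumbered one, and S + D gave 496, 345 and 349 CPM in the numbered libraries and 492 CPM in the unnumbered one. The Sal libraries lay within the control range, and each S + D library lay above every control. GAS5 rose 1.88-fold with S + D (log2 fold change 0.91 ± 0.24, adjusted p = 0.00316) and 2.06-fold in the numbered libraries. With Das it was 1.83-fold higher (0.87 ± 0.24), just outside the cutoff (adjusted p = 0.0105), and it passed without Das replicate 3 (log2 fold change 1.05) and in the numbered libraries (1.68-fold). With Sal GAS5 was at 0.80 times the control (adjusted p = 0.244). The level with S + D was 2.36-fold that with Sal (log2 1.24 ± 0.24, adjusted p = 0.00452) and 2.29-fold in the numbered libraries. The call for S + D against control was lost without control replicate 1 (0.79) or 3 (0.87) or S + D replicate 1 (0.82), and that against Sal without S + D replicate 1 (1.15), the unnumbered S + D library (1.17) or any numbered Sal library (1.22 to 1.23).

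SNHG1, which carries several C/D box snoRNAs, had values below the control with Sal and above it with S + D. At 24 h its control libraries measured 209.5, 213 and 202 CPM in the numbered libraries and 242 CPM in the unnumbered one. Sal gave 160.3, 188 and 162 CPM in the numbered libraries and 186 CPM in the unnumbered one, all below the controls, and S + D gave 292, 270.5 and 288 CPM in the numbered libraries and 428 CPM in the unnumbered one, all above them. SNHG1 rose 1.51-fold with S + D (adjusted p = 0.00323) and was 1.89-fold higher with S + D than with Sal (adjusted p = 0.000288), and the numbered libraries gave 1.38-fold and 1.67-fold, both called. The Sal value was 0.80 times the control, not called with all libraries (adjusted p = 0.151) and called in the numbered libraries (0.82 times). At 72 h the control libraries held 155, 163 and 154 CPM in the numbered libraries and 205 CPM in the unnumbered one, the Sal libraries 107, 119 and 112 CPM in the numbered libraries and 134 CPM in the unnumbered one and the S + D libraries 280.5, 235 and 226 CPM in the numbered libraries and 362 CPM in the unnumbered one. No library of these 3 groups overlapped another group at 72 h. SNHG1 rose 1.61-fold with S + D (log2 fold change 0.69 ± 0.19, adjusted p = 0.0049), and S + D was 2.34-fold above Sal (1.23 ± 0.20, adjusted p = 0.000927), with log2 values of 0.63 and 1.13 in the numbered libraries, both called. Sal alone was at 0.69 times the control (adjusted p = 0.0216), which passed in the numbered libraries at 0.70 times. The calls for S + D against control were lost without any 1 numbered control at 24 h (log2 fold change 0.54 to 0.56), and at 72 h without control replicate 1 or 3 (0.64 for both), S + D replicate 1 (0.68) or the unnumbered S + D library (0.57). SNHG1 was also the 1 lncRNA called for an interaction at 24 h in the numbered libraries (5.09% of all genes), where S + D exceeded the sum of the single responses by a log2 value of 0.62. With all libraries this value was 0.73 and did not pass (adjusted p = 0.206), and 0 of the 9 were called by edgeR or by DESeq2, with 1 at an unadjusted p under 0.05 and 0.0306% of all genes called.

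ZFAS1, a host of snoRNAs of the SNORD12 family, followed GAS5 and SNHG1. At 72 h its control libraries measured 137, 145 and 125 CPM in the numbered libraries and 177 CPM in the unnumbered one and its Sal libraries 99.4, 122 and 106 CPM in the numbered libraries and 96.8 CPM in the unnumbered one. Those with S + D measured 264, 171 and 166 CPM in the numbered libraries and 222 CPM in the unnumbered one. Every Sal library lay below every control, but the fold of 0.72 did not pass (adjusted p = 0.0336), and neither did that of S + D against control (1.39-fold, adjusted p = 0.0334). The difference between S + D and Sal passed, at 1.94-fold (log2 0.96 ± 0.19, adjusted p = 0.00468; 1.84-fold in the numbered libraries, called), and was lost without S + D replicate 1 (0.82), the unnumbered S + D library (0.94), Sal replicate 1 (0.93) or 3 (0.96) or the unnumbered Sal library (0.92). At 24 h ZFAS1 rose 1.61-fold with S + D (adjusted p = 0.00607), a call lost without any 1 numbered control (log2 fold change 0.60 to 0.64), S + D replicate 1 (0.71) or the unnumbered S + D library (0.54), while the 1.54-fold of the numbered libraries was called.

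SNHG8 was the host with the largest fold change at 24 h. It measured 17.5, 17.5 and 17.1 CPM in the numbered libraries and 24.3 CPM in the unnumbered one of control cells and 38.5, 34.8 and 34.96 CPM in the numbered libraries and 58.8 CPM in the unnumbered one of S + D cells, with no overlap. It rose 2.24-fold with S + D at 24 h (log2 fold change 1.16 ± 0.25, adjusted p = 0.00134) and by a log2 value of 1.07 in the numbered libraries. At 72 h SNHG8 measured 16.3, 17.3 and 14.2 CPM in the numbered libraries and 22.8 CPM in the unnumbered one of control cells, 31.5, 30.5 and 18.6 CPM in the numbered libraries and 49.2 CPM in the unnumbered one with Das and 43.7, 27.7 and 27.6 CPM in the numbered libraries and 42.8 CPM in the unnumbered one with S + D. It rose 1.83-fold with Das (adjusted p = 0.00873) and 1.99-fold with S + D (adjusted p = 0.00132), and with S + D the numbered libraries gave 2.04-fold, called. The call for Das was kept without Das replicate 3 (log2 fold change 1.08) and without the unnumbered control, and lost without any other of the 8 libraries (log2 fold change 0.62 to 0.92), and the numbered libraries gave 1.68-fold without a call. SNHG8 was the 1 host whose value with Sal at 72 h lay above the control (1.38-fold, adjusted p = 0.0943).

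SNHG5 and SNHG12 moved in the same direction as GAS5 without passing the test when all libraries were used. SNHG5 stood between 12.15 and 21.0 CPM in control cells at 72 h and between 16.9 and 26.7 CPM with S + D, so the groups overlapped (1.42-fold, adjusted p = 0.0587). SNHG12 stood between 8.64 and 16.7 CPM in control cells and between 15.15 and 27.8 CPM with S + D, and the groups overlapped through 1 control, the unnumbered one (1.68-fold, adjusted p = 0.024). In the numbered libraries the S + D values, 1.5-fold for SNHG5 and 1.70-fold for SNHG12, were both called. With Sal at 72 h the values were 0.76 times the control for SNHG5 and 0.81 times for SNHG12, not called (adjusted p = 0.147 and 0.339).

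SNHG15, a short-lived host transcript, was the exception among the hosts. Its numbered libraries lay between 30.9 and 33.5 CPM in control cells at 24 h and between 22.4 and 25.6 CPM with S + D, with no overlap, but the unnumbered libraries held 72.6 and 60.3 CPM. With all libraries its folds lay between 0.71 and 0.88 in the 6 comparisons with control and none passed. In the numbered libraries it fell with Sal at 24 h (0.77 times), with S + D at 24 h (0.75 times) and with Sal at 72 h (0.72 times), all called.

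**Figure D3:**
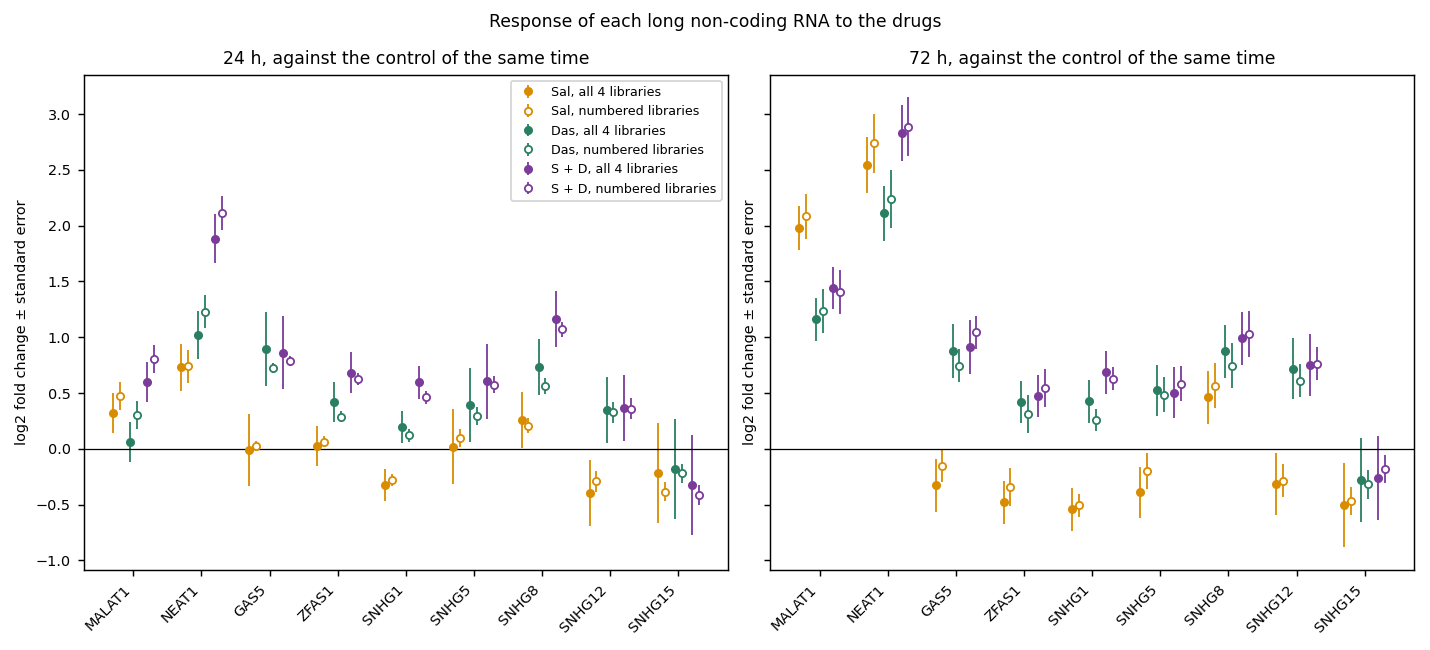
Log2 fold change against the control of the same time (y axis, ± standard error) for the 9 lncRNAs at 24 h (left) and 72 h (right). Orange marks Sal, green Das and purple S + D. Filled points use all 4 libraries and open points the 3 numbered ones. NEAT1 and MALAT1 were high for all 3 treatments at 72 h, while 6 of the 7 hosts had positive values with Das and S + D and 6 of the 7 had negative values with Sal at 72 h.

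Counted over the 9 lncRNAs, Sal at 24 h called 0 with all libraries, by edgeR and by DESeq2, with 2 at an unadjusted p under 0.05, where 6.78% of all 16357 genes were called. The numbered libraries called 4 (23.5% of all genes), which were MALAT1 and NEAT1 higher and SNHG1 and SNHG15 lower. Das at 24 h called NEAT1 alone (13.9% of all genes), and 6 in the numbered libraries (39.3%), all higher. S + D at 24 h called NEAT1, ZFAS1, SNHG1 and SNHG8 (33.6% of all genes), all higher, and all 9 in the numbered libraries (58.1%), of which 8 were higher and SNHG15 lower. At 72 h Sal called NEAT1 and MALAT1, both higher (53.2% of all genes), so that a smaller share of the 9 than of all genes was called, and the numbered libraries added SNHG1 and SNHG15, both lower (57.3%). Das at 72 h called NEAT1, MALAT1 and SNHG8 (19.9% of all genes), and 4 with the numbered libraries (22.6%), where GAS5 and SNHG12 took the place of SNHG8. S + D at 72 h called these 3 and GAS5 and SNHG1, all 5 higher, where 27% of all genes were called higher and 54.9% were called in either direction. The numbered libraries called 7 with S + D (57.8%), all but ZFAS1 and SNHG15. Leaving out 1 library at a time gave 2 to 5 calls for S + D at 24 h and 3 to 7 at 72 h.

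In S + D against Sal at 72 h 3 of the 7 hosts were called, GAS5, ZFAS1 and SNHG1, all higher with S + D, where 3.01% of all genes were called and 1.42% were called higher. With the numbered libraries 5 were called (4.31% of all genes), SNHG5 (1.72-fold) and SNHG12 (2.07-fold) besides these. At 24 h S + D against Sal called NEAT1 (2.22-fold) and SNHG1 with all libraries (12.9% of all genes) and 7 in the numbered ones (41.4%). S + D against Das called none of the 9 at 24 h (8.49% of all genes) or at 72 h (32.1%) by edgeR, with 3 and 1 at an unadjusted p under 0.05 and 1 called at each time by DESeq2. With the numbered libraries 6 were called at 24 h (32.9%) and 1, SNHG1, at 72 h (36.6%), all higher with S + D.

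Over the 7 hosts the median log2 fold changes at 72 h were -0.39 (Sal), 0.53 (Das) and 0.69 (S + D), beside medians of 0.00, 0.02 and 0.01 over all genes tested. At 24 h the host medians were -0.01, 0.39 and 0.60. The numbered libraries gave medians of -0.28, 0.49 and 0.63 at 72 h. Das and Sal were not tested against each other. S + D and the single drugs share the same control libraries, so these medians are not independent of each other.

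The order of levels over the 8 conditions, taken over the numbered libraries, differed between the nuclear RNAs and the hosts. NEAT1 was lowest in 72 h control cells (mean 224 ± 38.7 CPM, SD, n = 3) and highest with S + D at 72 h (1684 ± 169 CPM), and neighbouring conditions from Sal at 72 h upwards overlapped. MALAT1 was highest with Sal at 72 h (537 ± 40.3 CPM), which did not overlap the next condition, S + D at 72 h (336 ± 70.6 CPM). GAS5 formed a lower group of 4 conditions, both controls and both Sal conditions (means 168 to 189 CPM), whose neighbours overlapped, and an upper group of 4, Das and S + D at both times (means 271 to 396 CPM). By their means, ZFAS1 and SNHG5 split in the same way into both controls and Sal below and Das and S + D above. For ZFAS1 the 2 groups overlapped, as Das at 72 h reached down to 136.9 CPM and the 72 h control up to 144.8 CPM. SNHG15 was highest in 24 h control cells (32.6 ± 1.42 CPM), which overlapped no other condition.

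Per kilobase of annotated exon, the level in control cells at 24 h was highest for SNHG1 (54.5 CPM per kb) and GAS5 (40.6 CPM per kb). NEAT1 (18.5), ZFAS1 (16.4), MALAT1 (14.9) and SNHG15 (10.8 CPM per kb) followed. SNHG12 (4.58), SNHG8 (2.89) and SNHG5 (1.24 CPM per kb) were lowest on this scale. Exon lengths are those of all annotated isoforms together, so the isoform in use could change this order.

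The unnumbered libraries differed from the numbered ones in the hosts. In a fit with a term for them, all 7 hosts were higher in the unnumbered libraries at 24 h, by 1.28-fold (SNHG1) to 2.51-fold (SNHG15), where 50.4% of all genes were called and 25.4% were called higher. At 72 h 6 of the 7 hosts were called higher, by 1.41-fold (SNHG8) to 2.23-fold (SNHG15), beside 25% of all genes called, and ZFAS1 was not (1.22-fold, adjusted p = 0.0859). GAS5 was higher by 1.96-fold at 24 h and by 1.51-fold at 72 h. MALAT1 and NEAT1 were not called at either time (1.23-fold and 1.27-fold at 24 h, 0.84-fold and 1.30-fold at 72 h). Of the 17 other snoRNA-host lncRNAs tested, 15 were called at 24 h, all higher, and of 33 protein-coding snoRNA hosts 19 were higher and 3 lower. The labels give no reason for the missing number, and what set these libraries apart was not tested.

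**Figure D4:**
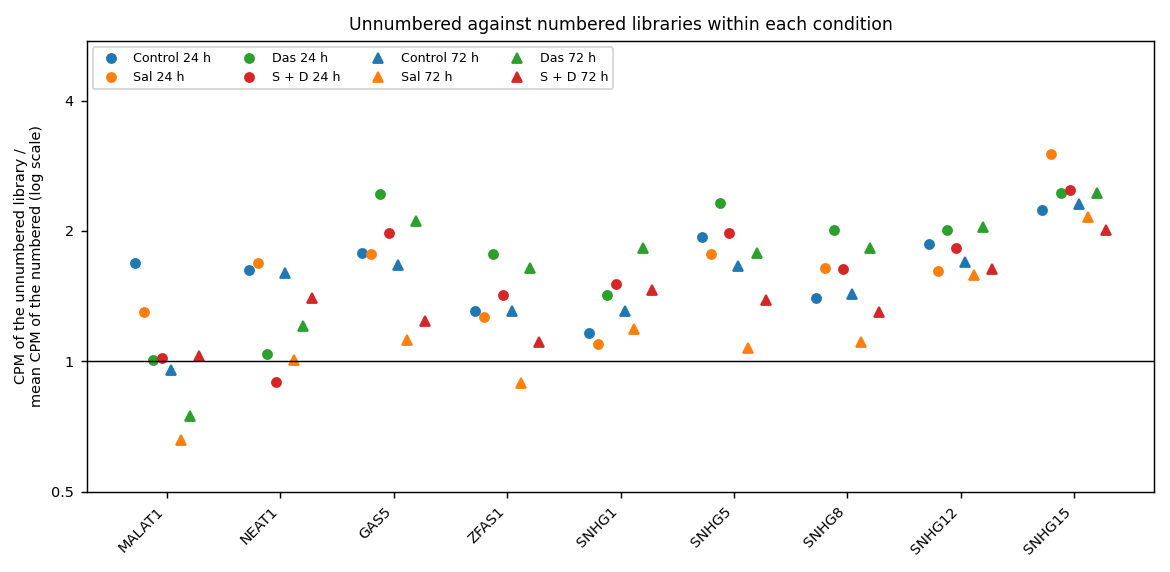
Ratio of the level in the unnumbered library to the mean of the numbered libraries of the same condition (y axis, log scale) for each lncRNA, with 1 symbol per condition (circles 24 h, triangles 72 h). SNHG15 lies between 2.01 and 3.02, the other hosts lie above 1 in all conditions but Sal at 72 h for ZFAS1 (0.89), and MALAT1 and NEAT1 lie on both sides of 1.

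Across the 32 libraries the log2 levels of MALAT1 and NEAT1 went together (Pearson r = 0.83), as did those of GAS5 with ZFAS1 (0.92), with SNHG5 (0.93) and with SNHG8 (0.86). MALAT1 had an r of 0.14 with GAS5 and of -0.04 with ZFAS1. SNHG8 lay between the groups, with 0.74 to NEAT1. In the 24 numbered libraries GAS5 and ZFAS1 had 0.88 and MALAT1 and NEAT1 0.83, whereas GAS5 and SNHG15 fell from 0.49 to -0.15. The genes most like MALAT1 were SCML1 (0.95), CFAP44 (0.95) and FAM227A (0.95), and those most like NEAT1 were ENSG00000272720 (0.97), KHDC4 (0.96) and KCTD7 (0.96). Those most like GAS5 were SNHG6 (0.95), CCNB1IP1 (0.93) and SNHG5 (0.93). SNHG5 is one of the hosts described above, and SNHG6 is a further snoRNA-host lncRNA. These correlations are descriptions over libraries that share conditions and, in the case of the hosts, the shift of the unnumbered libraries.

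Nearby and overlapping protein-coding genes were measured in the same fits. SLC3A2, the heavy chain of several amino acid transporters, starts 51 bases from SNHG1 on the other strand. It rose with Das (log2 fold change 1.36 at 24 h and 1.08 at 72 h) and with S + D (1.31 and 1.09), all called, and not with Sal (0.11 and 0.22). FRMD8, upstream of NEAT1, passed in none of the 6 comparisons with control. ZNFX1, which starts 248 bases from ZFAS1 on the other strand, fell with S + D by 0.69 at 24 h and by 0.48 at 72 h on the log2 scale. WDR74, which starts downstream of SNHG1 on the same strand, rose with Sal (1.03) and S + D (1.24) at 72 h. PRSS12, which shares exon bases with SNHG8, did not pass the filter (0.095 to 0.268 CPM as means of the conditions).

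The counts for related gene lists are read against all genes tested at 72 h, of which S + D called 27% higher and 27.9% lower, Sal 26.3% higher and 26.8% lower, and Das 10.5% higher and 9.36% lower. Among the other snoRNA-host lncRNAs, 17 of the 21 listed passed the filter. With S + D at 72 h 7 rose and 2 fell (median log2 fold change 0.20), with Das 2 passed, both higher (0.29), and with Sal 2 rose and 2 fell (-0.18). The share called with Das, 2 of 17, was near that of all genes. SNHG21 (1.72) and SNHG20 (1.39) rose most with S + D, and SNHG17 (-0.67) and DANCR (-0.47) fell. Of 33 protein-coding hosts, 5 rose and 6 fell with S + D at 72 h (median 0.27): TPT1, a growth-related protein with a pyrimidine tract, rose by 1.48 and the mitochondrial chaperone HSPA9 by 1.15, while the snoRNP protein NOP56 (-1.32) and RCC1 (-1.48) fell. With Sal 4 of these hosts rose and 6 fell, and with Das 1 rose and 3 fell. None of these counts of protein-coding hosts exceeded the share of all genes called in its direction.

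Transcripts of proteins that act on snoRNAs and on host RNAs were called in S + D at 72 h at about the share of all genes or less (27% higher, 27.9% lower). Of 15 snoRNP proteins, 4 rose and 3 fell with S + D at 72 h (median 0.03), led by the H/ACA proteins NHP2 (1.28) and GAR1 (1.16) upwards and by NOP56 and DKC1 (-0.90) downwards. With Das 5 of these 15 fell (9.36% of all genes), and with Sal 3 rose and 5 fell. Of 15 nonsense-mediated decay factors, 2 rose (MAGOH 0.88, UPF2 0.82) and 2 fell (SMG9 -1.05 and the helicase UPF1 -1.03) with S + D, 2 rose and 4 fell with Sal, and 1 fell with Das.

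Transcripts of paraspeckle proteins went the other way from NEAT1, and protein levels were not measured. Of 13 tested, 11 passed with S + D at 72 h, all lower (median -0.91), 10 fell and 1 rose with Sal (-0.69), and 6 passed with Das, all lower (-0.49). Over all genes 27.9%, 26.8% and 9.36% were called lower with S + D, Sal and Das. NONO (-1.10), SFPQ (-1.08), PSPC1 (-1.24) and RBM14 (-1.33), all core or essential paraspeckle proteins, fell with S + D, and so did the chromatin remodeler SMARCA4 (-1.28). NUDT21, which takes part in the choice of polyadenylation sites, rose with Sal (0.69). Of 15 nuclear speckle proteins, 1 rose (SRSF5, 1.09) and 5 fell with S + D at 72 h, SRSF1 (-1.16) and SRSF3 (-1.16) the most, where 27% of all genes were called higher and 27.9% lower. Among 12 other nuclear or abundant lncRNAs, 4 rose and 3 fell with S + D, from MIAT (2.194) and LINC-PINT (1.10) to DLEU2 (-2.55) and the imprinted H19 (-6.02).

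The proliferation genes fell with Sal and with S + D at 72 h, and fewer of them with Das at that time. All 15 fell with Sal (median log2 fold change -2.40) and all 15 with S + D (-2.85), where 26.8% and 27.9% of all genes were called lower. With Das 5 of the 15 were called lower (median -0.78, 9.36% of all genes), and 2 of the 15 in the numbered libraries (11.5% of all genes). All 15 were also lower with S + D than with Das (median -1.99, 17.7% of all genes called lower). The ribonucleotide reductase subunit RRM2 (-5.46) and MKI67 (-4.08) fell most with S + D. Among 12 cell cycle inhibitors and arrest genes 4 rose and 2 fell with S + D at 72 h, beside 27% and 27.9% of all genes. CDKN1A (1.34) and CDKN2B (1.04) were highest and CDKN2C (-1.15) and CCNG2 (-0.82) lowest. At 24 h 13 of the 15 proliferation genes were called lower with Das (median -1.024, 6.88% of all genes). With Sal at 24 h 5 were called lower (-0.528, 2.23%), and with S + D all 15 (-1.396, 16.5%). The numbered libraries called 14 lower with Das at 24 h (18.7% of all genes). They called all 15 lower with Sal (10.9%) and with S + D (29.4%).

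**Figure D5:**
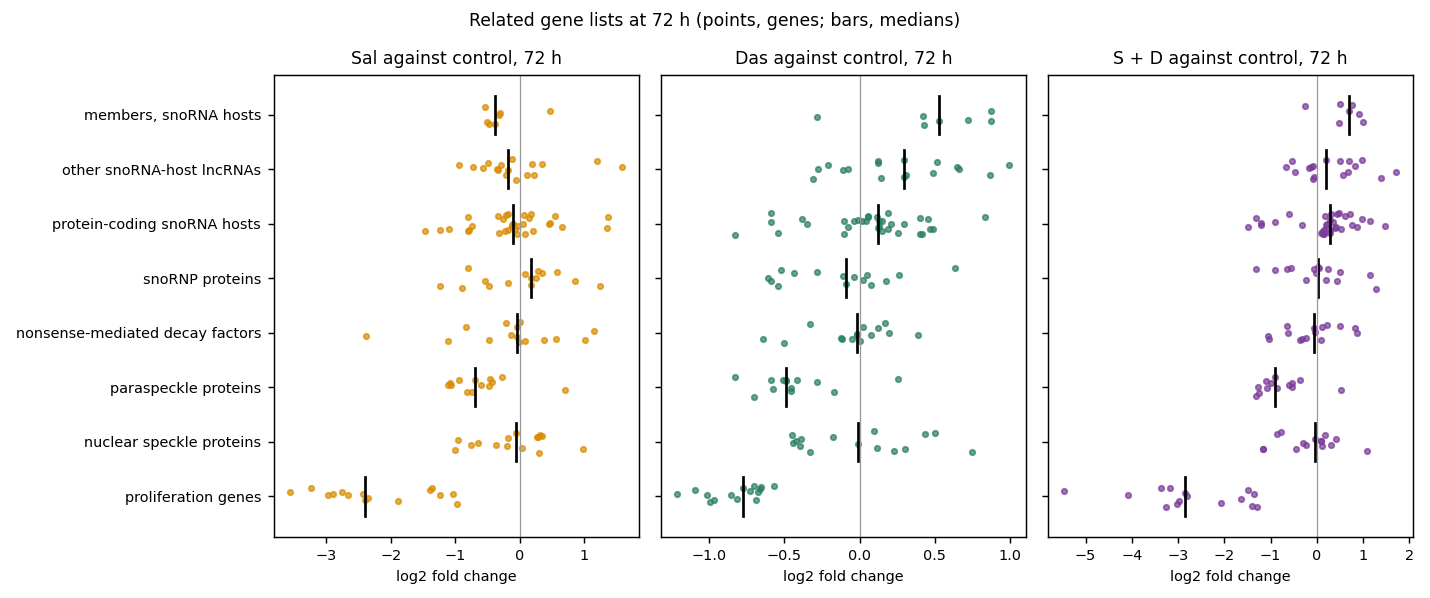
Log2 fold change against control at 72 h (x axis, own scale in each panel) for the genes of the 7 snoRNA hosts and of 7 related lists (y axis). The panels show Sal, Das and S + D from left to right. Points are genes and black bars medians. The host bar lies at -0.39, 0.53 and 0.69, the paraspeckle bar at -0.69, -0.49 and -0.91, and the proliferation bar at -2.40, -0.78 and -2.85.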

How the data were processed

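RNA-seq was done on 32 libraries of the MDA-MB-468 line, made with a TruSeq RNA kit and sequenced as single-end reads. According to the labels and the methods, the authors used bcl2fastq 2.19, STAR 2.5.2 on GRCh37, Cufflinks 2.1.1 and DESeq2. The deposited table holds raw counts per Ensembl gene for 48804 genes, as whole numbers with no normalization by the authors, and 33132 genes had at least 1 count. The counting program, its annotation and its use of strand are not given in the sources used here. Of the identifiers, 46537 matched the annotation (GENCODE, GRCh37), which gave symbols and coordinates.

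Groups came from the sample labels. Counts were fitted with edgeR 4.0.16 in R 4.3.3 (TMM, filterByExpr with a minimum count of 10, quasi-likelihood test, Benjamini-Hochberg adjustment over all genes tested), with the 16 libraries of a time point together (16357 genes at 24 h, 16682 at 72 h) or all 32 (17227 genes) for changes over time. Levels are CPM with the TMM factors of the 32 libraries, and log2 CPM for correlations has a prior count of 2. The interaction is the response to S + D minus the sum of those to Sal and Das on the log2 scale. The fit was tested on simulated data: for Sal against control at 72 h with 15772 genes, 92 of 186 genes changed by a log2 value of 1 were called, and 3 unchanged genes. The simulated libraries held no shared shift of the unnumbered libraries, so this result does not cover data with such a shift. Libraries held 25692561 to 42769687 counts, and errors are the spread between libraries, which includes counting error. Figures used matplotlib.

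Alternatives were size factors of DESeq2 (RLE), library totals alone, no filter on low counts, the replicate label as a block, the numbered libraries alone, a term for the unnumbered ones, only the groups compared, all 32 libraries in 1 fit, DESeq2 1.42.0, other cutoffs and leaving out each library. Pairing was checked by the correlation of deviations from the condition means. It was 0.613 to 0.691 between unnumbered libraries at 24 h and 0.532 to 0.626 at 72 h, but -0.105 to 0.118 between libraries of the same number at 24 h and -0.241 to 0.088 at 72 h when only numbered libraries were used. The numbers 1 to 3 were therefore not taken as pairs.

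The 9 lncRNAs and the related lists were chosen with earlier results of these data known. Named beyond the 9 were nearest and overlapping protein-coding genes (some are not reported here), up to 2 called genes of each list at either end of the log2 fold changes with S + D at 72 h, and the 3 genes most correlated with MALAT1, NEAT1 and GAS5. SFPQ, NONO, PSPC1 and NUDT21 were named after their values were seen. The snoRNA genes inside the hosts and the mitochondrially encoded genes were not analysed here.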

Additional observations from a re-analysis of the deposited data

Results flagged for a closer look

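In groups of 4 libraries, a library was singled out where its gap to the next, divided by the range of the group, exceeded Dixon's critical value. Chance alone does this in about 1 group in 20, and 30 of the 72 combinations of lncRNA and condition were singled out, 27 of them through the unnumbered library as the highest.

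For GAS5 this was so in all 4 conditions at 24 h, with gap shares of 0.929 (control), 0.932 (Sal), 0.966 (Das) and 0.956 (S + D). SNHG5 gave 0.945, 0.847, 0.889 and 0.907 in the same order at 24 h and 0.908 in control cells at 72 h. SNHG15 gave 0.938, 0.934, 0.84 and 0.917 at 24 h, and 0.911 (control), 0.847 (Sal) and 0.962 (Das) at 72 h. SNHG8 gave 0.941 in control, 0.969 in Das and 0.846 in S + D cells at 24 h. SNHG12 gave 0.949 in control and 0.948 in S + D cells at 24 h and 0.852 with Das at 72 h. ZFAS1 gave 0.91 with Das and 0.849 with S + D at 24 h, and SNHG1 gave 0.865 with S + D at 24 h and 0.873 with Das at 72 h. The unnumbered control library of 24 h was also the highest for MALAT1 (0.861). What moved these libraries was not tested.

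Numbered libraries were singled out 3 times. MALAT1 was lowest in replicate 2 of S + D at 24 h (0.912), within a range of only 219 to 234 CPM, and highest in replicate 2 of the 72 h control (0.854). SNHG5 was lowest in replicate 1 of Sal at 72 h (0.854).

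The log2 response to Sal differed between the time points for MALAT1 (by 1.66) and for NEAT1 (by 1.82), as tested by edgeR's quasi-likelihood test of the difference between the 2 responses.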

How the results depend on the processing

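The share of all genes called also depended on the setting. With a term for the unnumbered libraries it was 22.2%, 31% and 52.6% for Sal, Das and S + D at 24 h. At 72 h it was 62.1%, 31.6% and 63.7% in the same order. With all libraries and no such term the shares were 6.78%, 13.9% and 33.6% at 24 h and 53.2%, 19.9% and 54.9% at 72 h. With the term it was 31% for S + D against Sal and 25.8% for S + D against Das at 24 h, and 8.41% and 43.7% at 72 h. It was 1.42% for the interaction at 24 h, 9.03% for control over time and 30% for the change of S + D over time. Shares for the numbered libraries stand beside the counts in the Results. For the other settings no share of all genes is given, so their counts cannot be read as particular to these lncRNAs. The values below are numbers of the 9 lncRNAs called. At an adjusted p under 0.05 they were 1 (from 0) for Sal, 24 h, 2 (from 1) for Das, 24 h, 4 (from 2) for S + D against Sal, 24 h, 2 (from 0) for S + D against Das, 24 h, 4 (from 2) for Sal, 72 h, 5 (from 3) for S + D against Sal, 72 h, 1 (from 0) for S + D against Das, 72 h, 1 (from 0) for the change of Das over time and 2 (from 0) for the change of S + D over time. With the numbered libraries only they were 4 (from 0) for Sal, 24 h, 6 (from 1) for Das, 24 h, 9 (from 4) for S + D, 24 h, 7 (from 2) for S + D against Sal, 24 h, 6 (from 0) for S + D against Das, 24 h, 1 (from 0) for the interaction, 24 h, 4 (from 2) for Sal, 72 h, 5 (from 3) for S + D against Sal, 72 h, 1 (from 0) for S + D against Das, 72 h and 2 (from 0) for control over time. With the replicate block they were 3 (from 0) for Sal, 24 h, 6 (from 1) for Das, 24 h, 9 (from 4) for S + D, 24 h, 7 (from 2) for S + D against Sal, 24 h, 4 (from 0) for S + D against Das, 24 h, 1 (from 0) for the interaction, 24 h, 4 (from 2) for Sal, 72 h, 6 (from 3) for Das, 72 h, 5 (from 3) for S + D against Sal, 72 h, 1 (from 0) for S + D against Das, 72 h, 1 (from 0) for control over time, 1 (from 0) for the change of Das over time and 2 (from 0) for the change of S + D over time. With a term for the unnumbered libraries they were 3 (from 0) for Sal, 24 h, 6 (from 1) for Das, 24 h, 9 (from 4) for S + D, 24 h, 7 (from 2) for S + D against Sal, 24 h, 5 (from 0) for S + D against Das, 24 h, 1 (from 0) for the interaction, 24 h, 4 (from 2) for Sal, 72 h, 7 (from 3) for Das, 72 h, 5 (from 3) for S + D against Sal, 72 h, 1 (from 0) for S + D against Das, 72 h, 4 (from 2) for the interaction, 72 h, 2 (from 0) for control over time and 2 (from 0) for the change of S + D over time. With an absolute log2 fold change above 1.5 as well they were 0 (from 1) for Das, 24 h, 1 (from 4) for S + D, 24 h, 0 (from 2) for S + D against Sal, 24 h, 1 (from 3) for Das, 72 h, 1 (from 5) for S + D, 72 h and 0 (from 3) for S + D against Sal, 72 h. With DESeq2 they were 4 (from 2) for S + D against Sal, 24 h, 1 (from 0) for S + D against Das, 24 h, 5 (from 3) for S + D against Sal, 72 h, 1 (from 0) for S + D against Das, 72 h, 1 (from 0) for the change of Das over time and 1 (from 0) for the change of S + D over time. With library totals alone they were 4 (from 2) for S + D against Sal, 24 h. With no filter on low counts they were 1 (from 0) for S + D against Das, 24 h, 5 (from 3) for S + D against Sal, 72 h and 1 (from 0) for S + D against Das, 72 h. With only the groups compared they were 1 (from 0) for S + D against Das, 24 h, 4 (from 2) for Sal, 72 h and 1 (from 0) for the change of S + D over time. Leaving out 1 library at a time gave 0 to 1 for Sal, 24 h, 0 to 1 for Das, 24 h, 2 to 5 for S + D, 24 h, 2 to 3 for S + D against Sal, 24 h, 0 to 0 for S + D against Das, 24 h, 0 to 0 for the interaction, 24 h, 2 to 2 for Sal, 72 h, 2 to 4 for Das, 72 h, 3 to 7 for S + D, 72 h, 1 to 3 for S + D against Sal, 72 h, 0 to 1 for S + D against Das, 72 h, 2 to 3 for the interaction, 72 h, 0 to 0 for control over time, 2 to 2 for the change of Sal over time, 0 to 2 for the change of Das over time and 0 to 1 for the change of S + D over time. A count of 0 became 1 for Sal at 24 h without the unnumbered control, for S + D against Das at 72 h without Das replicate 1 or the unnumbered Das library, and for the change of S + D over time without S + D replicate 1 of 72 h, and it became 2 for the change of Das over time without Das replicate 3 of 72 h. The replicates numbered 1 to 3 share only a label, and the counts with the replicate block lay within 1 of those with a term for the unnumbered libraries. The cause of the other moves was not tested.

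Over single lncRNAs and all alternatives, 2578 results kept their side of the cutoff, 156 passed only under the alternative and 38 no longer passed. Direction was compared only where a result passed in the main fit, the alternative or both, and none of these reversed. Against TMM, DESeq2 size factors shifted the mean scaling of a drug group relative to control by at most 0.025 on the log2 scale. Library totals alone shifted it by at most 0.07. Reads shared with opposite-strand genes limit MALAT1, ZFAS1 and SNHG8. What sets the unnumbered libraries and Das replicate 3 apart was not tested.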
